A study of Rattus norvegicus with 372 samples.

Results

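The 10 marker genes described here, Cd68, Cd74, Cd53, Tyrobp, Fcer1g, Csf1r, Lyz2, Ptprc, Itgb2 and C1qa, are expressed by Kupffer cells, the resident macrophages of the liver, and by other leukocytes. They were picked by symbol, ignoring case, and all 10 were measured among the 20946 genes of the whole transcriptome assay (WT) and among the 2604 genes of the surrogate S1500+ assay (ST), with 1 probe each. Both are TempO-Seq assays, which count ligated pairs of detector oligos directly in cell lysate. The samples were primary hepatocytes of male Wistar rats, freshly isolated by collagenase perfusion and kept in a sandwich of bovine type I collagen in medium with insulin, dexamethasone and epidermal growth factor. They received 0.5% DMSO (vehicle), culture medium alone (media) or 1 of 14 chemicals at 2 concentrations for 24 h. Each of the 2 batches used hepatocytes of 1 rat in 1 sequencing run, with 3 wells per treatment, so that rat, library preparation and run cannot be told apart and wells of a batch are technical replicates. Batch 1 held 3 vehicle wells and batch 2 held 6. The 6 chemicals acetaminophen, chloramphenicol, indomethacin, ketoconazole, sulfasalazine and WY14643 were on a plate of batch 1 without control wells. The high concentrations were acetaminophen, caffeine, isoniazid and valproic acid (labelled Valproic) at 10000 µM, ranitidine at 4000 µM, naproxen at 2000 µM, chloramphenicol at 450 µM, diclofenac at 400 µM, indomethacin at 300 µM, WY14643 at 200 µM, sulfasalazine at 100 µM, simvastatin at 60 µM, ketoconazole at 15 µM and doxorubicin at 2 µM. The low ones were acetaminophen, caffeine, isoniazid and valproic acid at 400 µM, ranitidine at 160 µM, naproxen at 80 µM, chloramphenicol at 18 µM, diclofenac at 16 µM, indomethacin at 12 µM, WY14643 at 8 µM, sulfasalazine at 4 µM, simvastatin at 2.4 µM, ketoconazole at 0.6 µM and doxorubicin at 0.08 µM.

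Kupffer cells line the liver sinusoids, clear particles and dead cells from portal blood, and depend on signals through the CSF1 receptor for survival. Collagenase perfusion frees them together with hepatocytes, and low-speed centrifugation leaves some of them in the hepatocyte fraction. The markers differ in role. Csf1r is the receptor for CSF1 and IL-34. Tyrobp (DAP12) and Fcer1g (the Fc receptor gamma chain) are signalling adaptors with ITAM motifs. Ptprc (CD45) is the leukocyte tyrosine phosphatase, Itgb2 the beta 2 integrin chain and Cd53 a tetraspanin. Cd74 is the invariant chain of MHC class II, C1qa a chain of complement C1q, Lyz2 the macrophage lysozyme and Cd68 a glycoprotein of the endolysosome membrane.

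Transcription of many macrophage genes depends on the ETS factor PU.1, which is encoded by Spi1. RefSeq promoter windows of the rat assembly GRCr8, each 300 bases long and placed around a start site taken from RefSeq, which for some of these genes (Lyz2 among them) is not the outer end of the gene, were found for 7 of the 10 markers (Cd68, Cd74, Cd53, Csf1r, Lyz2, Ptprc and C1qa). The core letters GAGGAA, searched on both strands (TTCCTC on the other), stood in 6 of these 7, all but C1qa, and in 27.6% of all 33469 windows. The windows of Lyz2 and Cd68 are printed 5′ to 3′ with the core in capitals, because Lyz2 fell and Cd68 rose wherever a high concentration changed them. Lyz2 lies at chr7:54797962-54798261 and Cd68 at chr10:54882392-54882691, both on the minus strand.
Lyz2: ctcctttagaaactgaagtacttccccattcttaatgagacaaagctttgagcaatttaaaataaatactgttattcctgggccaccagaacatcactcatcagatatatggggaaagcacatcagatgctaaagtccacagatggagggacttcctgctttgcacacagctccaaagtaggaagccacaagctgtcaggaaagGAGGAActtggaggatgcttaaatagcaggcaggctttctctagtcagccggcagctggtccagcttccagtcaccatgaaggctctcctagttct
Cd68: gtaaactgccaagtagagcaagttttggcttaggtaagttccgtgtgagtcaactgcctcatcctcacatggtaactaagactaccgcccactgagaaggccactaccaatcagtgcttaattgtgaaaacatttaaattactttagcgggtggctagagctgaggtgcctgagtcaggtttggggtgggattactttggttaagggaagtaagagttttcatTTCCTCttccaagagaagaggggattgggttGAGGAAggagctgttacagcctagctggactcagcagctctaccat
The core occurred 1 time for Lyz2, at position 205 of the window, and 2 times for Cd68, at positions 224 and 255. Both windows therefore held the same core letters.

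Depth ranged from 2.29 to 8.98 M (mega) reads per well in the WT assay (median 6.84 M) and from 0.558 to 2.21 M in the ST assay (median 1.42 M). Levels are given as CPM, the counts per M reads of the well, which are shares of each library. Across genes they also depend on the probe. In such bulk lysates fewer macrophages and less RNA per macrophage cannot be told apart. Intervals on read counts cover counting error only.

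In vehicle wells the summed level of the 10 markers was low. In batch 1 the 3 wells held 87.4, 111 and 88.0 CPM, and in batch 2 the 6 wells held 55.9 to 80.5 CPM with a median of 71.5. Cd74 alone made up 66.3% of the sum in batch 1 and 65.7% in batch 2. By contrast, the summed level of the 7 hepatocyte genes of the comparison list was 37580 to 40920 CPM in batch 1. The wells of the batches did not overlap in the sum of the 10 markers.

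Cd74 was at 58.9, 76.8 and 54.3 CPM in the 3 wells of batch 1 and at 34.7 to 52.3 CPM in the 6 wells of batch 2 (median 48.1). Lyz2 was at 11.01, 16.9 and 11.4 CPM in batch 1 and at 4.28 to 6.60 CPM in batch 2 (median 4.68). Its batches did not overlap. Cd68 was at 5.81, 4.92 and 6.07 CPM in batch 1 and at 4.74 to 9.60 CPM in batch 2 (median 7.66). Csf1r was at 5.81, 5.83 and 6.07 CPM in batch 1 and at 3.80 to 7.06 CPM in batch 2 (median 5.81). For both Cd68 and Csf1r the wells of the batches overlapped in the WT assay. Tyrobp was at 2.42, 3.82 and 5.54 CPM in batch 1 and at 1.73 to 4.03 CPM in batch 2 (median 2.97). These 5 genes averaged 10 counts or more per well over all wells and were tested.

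The other 5 markers fell short of that count in the WT assay and are described by their reads, summed over wells. In vehicle of batch 1, with 19.4 M reads in all, there were 23 reads of C1qa, 19 of Itgb2, 14 of Fcer1g, 7 of Cd53 and 6 of Ptprc. In vehicle of batch 2, with 39.99 M reads, there were 34 of C1qa, 34 of Itgb2, 38 of Fcer1g, 18 of Cd53 and 17 of Ptprc. The pooled levels in batch 2 ran from 0.425 CPM for Ptprc (95% Poisson interval 0.248 to 0.681) to 0.95 CPM for Fcer1g (0.6725 to 1.304). Since probes differ, these levels do not rank the genes.

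**Figure D1:**
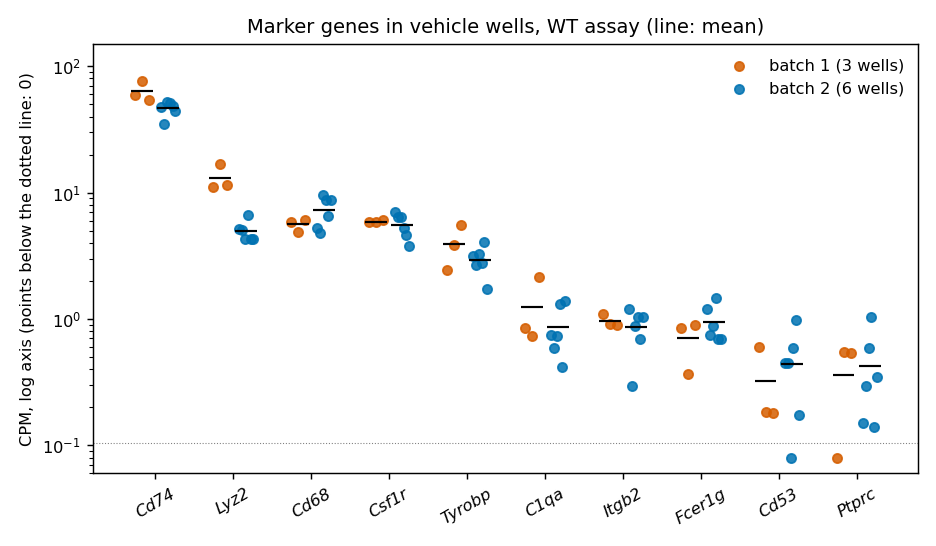
CPM of the 10 markers (log axis) in each vehicle well of the WT assay, with 3 wells in batch 1 (orange) and 6 in batch 2 (blue); black lines are means and points below the dotted line are wells at 0. Lyz2 is at 11.01 to 16.9 CPM in batch 1 and at 4.28 to 6.60 CPM in batch 2, while the wells of the other 9 markers overlap between batches except those of Cd74, which stand at 54.3 to 76.8 and 34.7 to 52.3 CPM.

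Beside the markers, lists of genes of the cell types that a perfused liver can hold were measured in the same wells. In bulk lysates these levels cannot show which cells the markers come from. Of 13 resident macrophage genes in the WT table, 12 were above 0 in every vehicle well, among them Cd14, a co-receptor for endotoxin that hepatocytes also make, at 23.0 to 42.4 CPM and C1qc, another C1q chain, at 15.1 to 23.9 CPM. Their summed level was 94.3 to 120 CPM in batch 1 and 83.3 to 98.4 CPM in batch 2. Of 12 lymphocyte genes, 6 were at 0 in every vehicle well and 1 was above 0 in all of them, Cd4, at 4.55 to 7.83 CPM, which rat macrophages also express. The T cell receptor chain gene Cd3g reached at most 0.242 CPM. Of 8 neutrophil genes, 5 were at 0 in every vehicle well, and S100a8 and S100a9, which encode calprotectin, reached at most 0.484 and 1.17 CPM. The 14 sinusoidal endothelium genes summed to 12.1 to 13.7 CPM in batch 1 and 6.82 to 9.72 CPM in batch 2, with Fcgr2b at 1.38 to 5.36 CPM and Eng at 0.901 to 3.75 CPM. The 11 stellate cell genes summed to 512 to 530.2 CPM in batch 1 and 328 to 436 CPM in batch 2. Of this sum Reln (206 to 300 CPM) and Tagln (54.6 to 123 CPM) held the most. Only 6 of the 11 had a mean of at least 1 CPM. The means of Des, Col1a1, Pdgfrb, Acta2 and Dcn were 0.063, 0.033, 0.573, 0.598 and 0.679 CPM. The 5 biliary genes summed to 37.7 to 46.25 CPM in batch 1 and 40.76 to 50.59 CPM in batch 2, led by Epcam at 27.3 to 44.3 CPM. Of the others, Krt7 was at 0 in every vehicle well, and Krt19, Sox9 and Spp1 averaged 0.301, 3.15 and 2.90 CPM. Among the resident macrophage genes Clec4f was at 5.04 to 23.1 CPM, while Siglec1, a sialic acid receptor of macrophages, was at 0 in every vehicle well, and the mean levels of Adgre1, which encodes F4/80, and of the scavenger receptor gene Marco were 0.717 and 0.910 CPM. Levels of different probes cannot be ranked against each other, so a low level does not by itself tell a cell type that is absent from a weak probe.

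Between the vehicle wells of the 2 rats, 1 of the 5 tested markers differed in the WT assay. Lyz2 was 2.69-fold lower in batch 2 (log2 fold change, L2FC, -1.43, SE 0.28, adjusted p = 2.1e-05, edgeR), beside 11.5% of all 10191 tested genes called lower. For Cd74 the L2FC was -0.48 (SE 0.25, adjusted p = 0.16, edgeR), with no overlap of the wells. For Tyrobp it was -0.40 (SE 0.31), for Csf1r -0.11 (SE 0.26) and for Cd68 0.34 (SE 0.30), none of which passed the test. In the ST assay, with the same probe, Csf1r was at 26.1 to 29.5 CPM in batch 1 and at 12.8 to 16.7 CPM in batch 2, without overlap. The wells of Cd68, Cd74 and Tyrobp overlapped there. On the 2 plates of batch 2 the mean of Csf1r was 6.59 and 4.55 CPM in the WT assay, and 14.75 and 15.3 CPM, in the same order, in the ST assay.

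At high concentrations most markers fell and Cd68 did not. Of 70 pairs of a tested marker and a high concentration, 45 were called lower and 7 higher, beside 25.5% lower and 25.4% higher for all tested genes. All 7 higher calls were Cd68. Without Cd68, 45 of 56 pairs were lower and 0 higher, while 48 had an unadjusted p under 0.05. In batch 1 alone 26 pairs were lower and 5 higher, and in batch 2 alone 41 were lower and 4 higher. All treatments share the vehicle wells, so their counts are not independent. Relative to vehicle of the batch, the mean summed level of the 10 markers at high concentrations lay between 18.9% (caffeine, batch 2) and 131% (isoniazid, batch 1). In the latter group 1 well held Cd74, the largest part of the sum, above all vehicle wells. In batch 2 isoniazid was at 95%, and Lyz2 and Tyrobp were called lower with it.

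**Figure D2:**
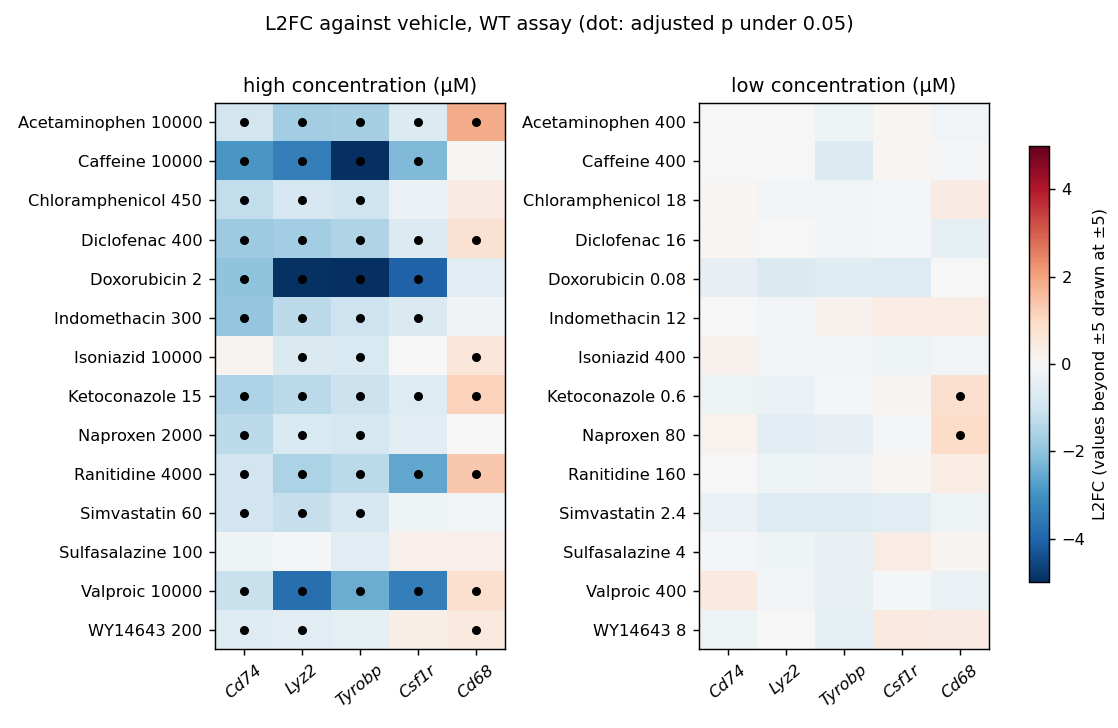
L2FC against vehicle of the 5 tested markers (columns) in 14 high and 14 low concentrations (rows, in µM), WT assay; blue is lower, red is higher, values beyond the colour scale are drawn at its end and a dot marks an adjusted p under 0.05 (edgeR). At high concentrations 45 of 70 cells are called lower and 7, all Cd68, higher, and at low concentrations 2 are called, both Cd68.

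Csf1r fell in 8 of 14 high concentrations, and most with doxorubicin at 2 µM. Its wells were at 0.669, 0.400 and 0.495 CPM in batch 1 and at 0.161, 0.322 and 0.154 CPM in batch 2. Every doxorubicin well was far below every vehicle well. The L2FC was -4.05 (SE 0.36, adjusted p = 1.1e-19, edgeR). With valproic acid at 10000 µM the wells were at 1.58, 0.930 and 1.25 CPM in batch 1 and at 0, 0.134 and 0.539 CPM in batch 2, again below all vehicle wells (L2FC -3.44, SE 0.32). Ranitidine lowered it by an L2FC of -2.60 (SE 0.29) and caffeine by -2.21 (SE 0.29). The calls of Csf1r with acetaminophen, diclofenac, indomethacin and ketoconazole were smaller, at -0.67 to -0.72 for the first 3 and -0.65 for ketoconazole. These 4 did not pass the test in batch 1 alone, where the adjusted p (edgeR) was 0.057 for acetaminophen, 0.954 for diclofenac, 0.371 for indomethacin and 0.549 for ketoconazole. In batch 2 the call with acetaminophen was lost as well (L2FC -0.57). Against the vehicle wells of their own plate, the L2FC in batch 2 was -0.29 with acetaminophen, -0.51 with indomethacin and -0.51 with ketoconazole. None of these passed the test. In vehicle Csf1r was lower on that plate than on the other in the WT assay, but not in the ST assay (15.3 against 14.75 CPM). In batch 1 the plate of these 3 chemicals had no control wells.

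Tyrobp fell in 12 of 14 high concentrations and left almost no reads in 2 of them. With doxorubicin there were 0 reads in batch 1, against 72 in vehicle, and 1 read in batch 2, against 119. At a floor of 3 reads per group this is at least 24.2-fold lower in batch 1, and in batch 2 the ratio was 0.0178 (95% counting interval 0.000446 to 0.101). With caffeine at 10000 µM there were 2 reads in batch 1, a ratio of 0.0332 (0.00395 to 0.125), and 0 in batch 2, at least 23.2-fold lower. The adjusted p (edgeR) was 1e-20 for doxorubicin and 2.3e-20 for caffeine. With valproic acid its wells were at 0.632, 1.40 and 0.998 CPM in batch 1 and at 0.267, 0 and 1.08 CPM in batch 2, with an L2FC of -2.49 (SE 0.31). The other 9 calls lay between -1.67 with acetaminophen and -0.75 with isoniazid. The calls with isoniazid and simvastatin held in neither batch alone, where their adjusted p (edgeR) was 0.227 and 0.136 in batch 1 and 0.0511 and 0.108 in batch 2. Those with chloramphenicol, indomethacin and naproxen were lost in batch 1 alone, and that with chloramphenicol also in batch 2 against vehicle of the same plate and without the wells numbered 2. Sulfasalazine (-0.52) and WY14643 (-0.50) did not pass the test.

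Cd74 fell in 12 of 14 high concentrations, most with caffeine. Its caffeine wells were at 6.97, 10.97 and 14.1 CPM in batch 1 and at 5.22, 3.81 and 3.80 CPM in batch 2, all below the lowest vehicle well. The L2FC was -2.91 (SE 0.25, adjusted p = 1.1e-22, edgeR). With doxorubicin the fall was smaller than that of the other 3 markers that fell, with wells at 17.1, 18.8 and 20.8 CPM in batch 1 and at 5.48, 11.9 and 14.3 CPM in batch 2 (L2FC -2.005, SE 0.23). Indomethacin (-1.93), diclofenac (-1.83), ketoconazole (-1.52) and naproxen (-1.32) followed. Isoniazid (0.13, SE 0.20) and sulfasalazine (-0.20, SE 0.20) did not pass the test. In the isoniazid wells of batch 1 Cd74 was at 47.9, 70.1 and 148 CPM, so that 1 well stood above all vehicle wells. In batch 1 alone 5 of the 12 calls were lost, those with acetaminophen (L2FC -0.59), chloramphenicol (-0.76), ranitidine (-0.34), simvastatin (-0.60) and WY14643 (-0.43).

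Lyz2 fell in 13 of 14 high concentrations, all but sulfasalazine (L2FC -0.04, SE 0.22). Its doxorubicin wells were at 0.335, 0.534 and 0.661 CPM in batch 1 and at 0, 0 and 0.308 CPM in batch 2. All 6 were below every vehicle well. The L2FC was -4.94 (SE 0.38, adjusted p = 5.2e-24, edgeR), and in batch 2 alone 2 reads stood against 198 in vehicle, a ratio of 0.0213 (95% counting interval 0.00257 to 0.0781). Valproic acid (-3.76, SE 0.32) and caffeine (-3.43, SE 0.32) came next. The weakest calls were WY14643 (-0.54, SE 0.23), isoniazid (-0.71, SE 0.23) and naproxen (-0.78, SE 0.24). The calls with WY14643, chloramphenicol and naproxen held in neither batch alone, where their adjusted p (edgeR) was 0.639, 0.143 and 0.104 in batch 1 and 0.092, 0.0624 and 0.0807 in batch 2. The calls with isoniazid (L2FC -0.16) and simvastatin (-0.64) were lost in batch 1 alone.

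Cd68 moved the other way. It rose in 7 of 14 high concentrations and fell in none. With acetaminophen its wells were at 22.5, 14.1 and 15.9 CPM in batch 1 and at 30.7, 14.8 and 8.78 CPM in batch 2. All wells of batch 1 were above vehicle, and 1 well of batch 2 lay among the vehicle wells. The L2FC was 1.86 (SE 0.21, adjusted p = 4.3e-15, edgeR). Ranitidine (1.36, SE 0.21), ketoconazole (1.16, SE 0.21), valproic acid (0.81, SE 0.22) and diclofenac (0.76, SE 0.22) followed. With valproic acid the 3 wells of batch 1 were at 14.7, 14.9 and 14.7 CPM and those of batch 2 at 12.0, 11.8 and 12.1 CPM, above every vehicle well of their batch, but in batch 2 alone the L2FC of 0.44 did not pass the test, nor did the 0.60 against vehicle of the same plate. Isoniazid (0.60, SE 0.22) and WY14643 (0.51, SE 0.22) were called, but in neither batch alone, where the adjusted p (edgeR) was 0.061 and 0.378 for isoniazid and 0.108 and 0.271 for WY14643. With doxorubicin the L2FC of Cd68 was -0.51 (SE 0.24, adjusted p = 0.13, edgeR) and with caffeine 0.06 (SE 0.23), which did not pass the test.

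**Figure D3:**
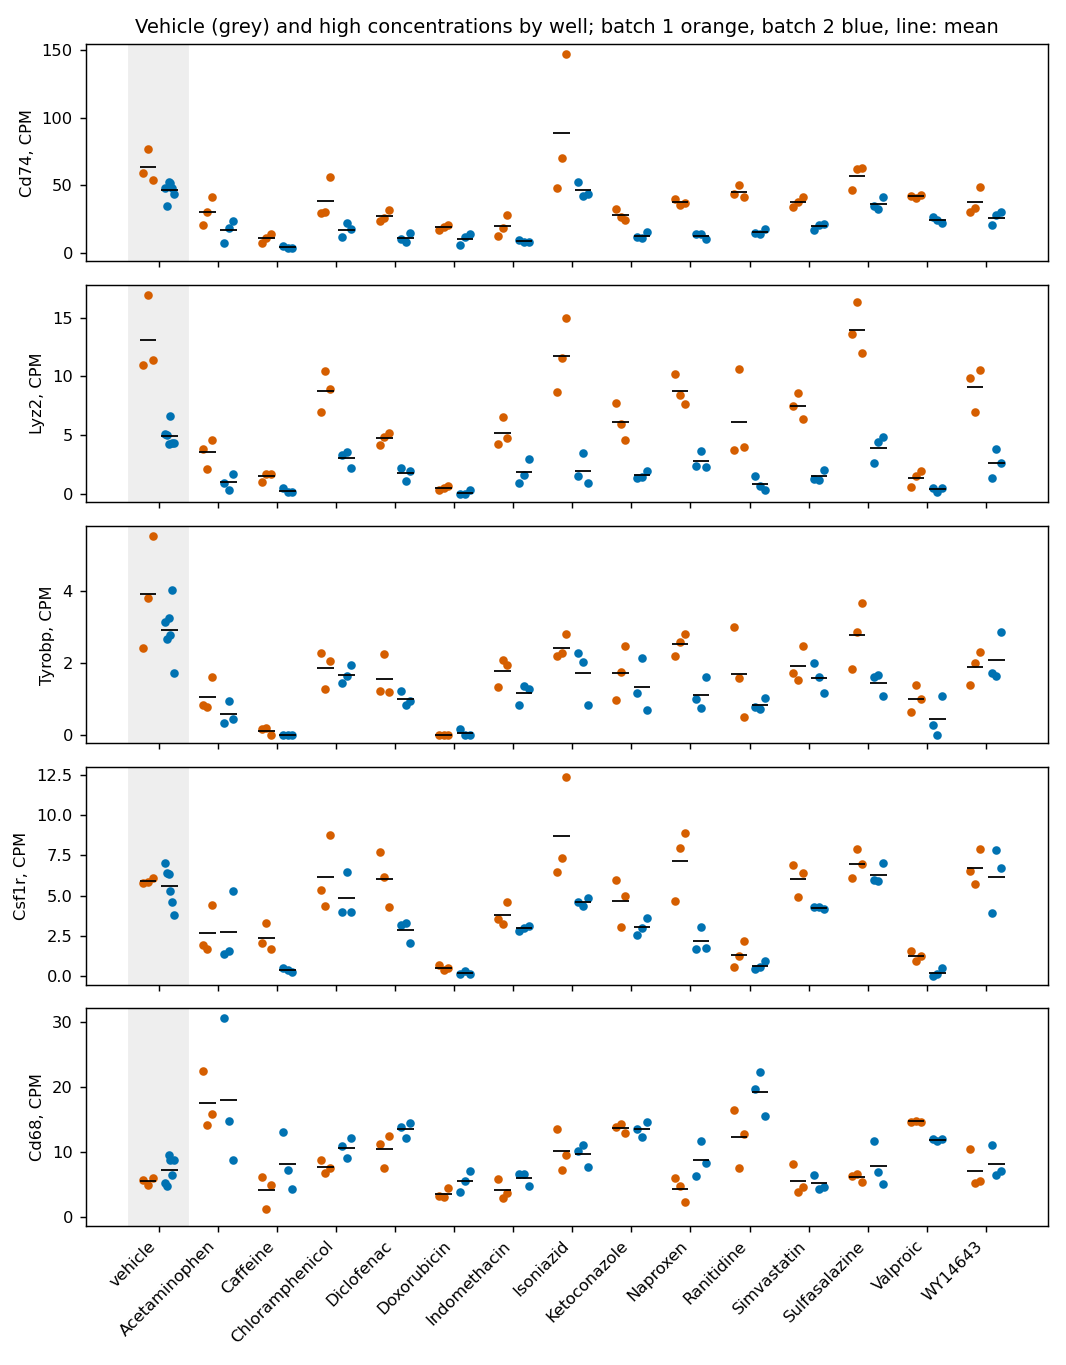
CPM of the 5 tested markers (1 panel each, linear axis) in every vehicle well (grey band) and every well of the 14 high concentrations, WT assay; batch 1 is orange, batch 2 is blue and lines are means. Doxorubicin wells of Lyz2, Csf1r and Tyrobp lie near 0, while Cd68 reaches 22.5 CPM in batch 1 and 30.7 CPM in batch 2 with acetaminophen.

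Read by treatment, 4 of the 5 tested markers were lower in 8 of the 14 high concentrations. These were doxorubicin, beside 10.3% of all tested genes, ketoconazole (26.3%), indomethacin (27.6%), caffeine (31.6%), valproic acid (33.2%), ranitidine (33.9%), diclofenac (35.8%) and acetaminophen (40.1%). In 3 treatments 3 markers were lower, which were simvastatin (12.5%), chloramphenicol (17.2%) and naproxen (26.2%). With isoniazid (17.3%) and WY14643 (25.3%) 2 were lower, and with sulfasalazine (19.6%) 0. Doxorubicin had the lowest background of the 14 and the lowest median L2FC of the markers, -4.05 against -0.01 over all genes.

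The 5 markers below the filter had few reads left in some treatments, mainly doxorubicin, caffeine, valproic acid and acetaminophen, and not in others. In the fit without the filter the L2FC of Itgb2 was 0.83 and that of Cd53 0.26 with ranitidine, and with diclofenac Cd53 was at -0.16, Fcer1g at -0.22 and Itgb2 at -0.32, none of them called. In the same fit C1qa was called lower with both (-2.14 with ranitidine and -2.33 with diclofenac), as was Fcer1g with ranitidine (-1.85). In the ST assay, with another probe, Fcer1g was called lower with both, at -0.84 (SE 0.24) with diclofenac and -0.51 (SE 0.23) with ranitidine. In the WT assay doxorubicin left 1 read of C1qa in each batch, a ratio of 0.0431 (95% counting interval 0.00105 to 0.265) in batch 1 and 0.0622 (0.00153 to 0.371) in batch 2. C1qa had 0 reads with caffeine and with valproic acid in both batches, which is at least 6.41-fold and 6.65-fold lower in batch 1 and at least 6.62-fold and 6.35-fold lower in batch 2. Fcer1g had 0 reads with doxorubicin in batch 2, at least 5.99-fold lower, and 5 in batch 1. For the integrin chain Itgb2, acetaminophen left 3 reads in batch 1 (ratio 0.202, 0.0383 to 0.687) and 0 in batch 2, at least 7.39-fold lower. Ptprc and Cd53 had so few reads in vehicle that the intervals of many ratios reached past 1. The interval of Cd53 with doxorubicin in batch 1 was 0.0287 to 1.49. When the filter was left out, C1qa was called lower in 8 of 14 high concentrations, Fcer1g in 5, Itgb2 and Ptprc in 4 each and Cd53 in 3, and none of them was called higher (edgeR). In that fit 13.8% of all pairs of a gene and a high concentration were lower, a share that includes many genes with hardly any reads, and the counts of Itgb2, Ptprc and Cd53 lie near the 25.5% of the genes that passed the filter.

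Other genes of the same pathways were taken from lists, whose counts are to be read against the 25.5% lower and 25.4% higher of all genes. Of the 9 tested resident macrophage genes, 8 were lower with doxorubicin and 9 with valproic acid and with acetaminophen, and over all high concentrations 82 of 126 pairs were lower and 9 higher. C1qc fell in 11 high concentrations, with an L2FC down to -5.20 with doxorubicin. Cd14 fell in 2 and rose in 8, by 2.04 with caffeine. MHC class II genes, whose products Cd74 chaperones, were lower in 40 of 56 pairs and higher in 3. Among them RT1-Db1, a beta chain, was lower in 12 high concentrations, and RT1-DMa, which loads peptides, was lower in 6 and higher in 3. Of the genes that act with the ITAM adaptors, 23 of 56 pairs were lower and 7 higher. The kinase gene Lyn was lower in 5 and higher in 1, and the phosphatase gene Ptpn6 was lower in 1 and higher in 5. Of the partners of the beta 2 integrins, 12 of 28 pairs were lower and 7 higher, the latter at the share of all genes, with Icam1, a ligand, lower in 5 and higher in 6, and Fermt3, an activator, lower in 7 and higher in 1. The list of CSF1 receptor ligands and myeloid factors had 21 of 56 pairs lower and 15 higher (26.8%, again near that of all genes). Csf1, the ligand of Csf1r, fell in 10 high concentrations, and it rose with doxorubicin, where the L2FC was 0.93 and its receptor fell. The transcription factor gene Cebpa, which hepatocytes also express, was higher in 10 and lower in 2.

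The lists of other cell types were counted in the same way. Stellate cell genes were lower in 54 of 84 pairs and higher in 6, with Tagln lower in 11 high concentrations and Reln lower in 12 and higher in 1. Hepatocyte genes were lower in 60 of 98 pairs and higher in 13, with Alb lower in 9 and higher in 1, and Apoa1 lower in 12. Sinusoidal endothelium genes were lower in 8 of 28 pairs (28.6%, near the share of all genes) and higher in 2, with Fcgr2b lower in 5 and Eng lower in 3 and higher in 2. Biliary genes were lower in 16 of 42 pairs and higher in 7, with Epcam lower in 6 and higher in 2, and Sox9 lower in 3 and higher in 5. The 1 tested lymphocyte gene, Cd4, was lower in 6 of 14. No neutrophil gene passed the filter. With doxorubicin the median L2FC was -4.05 for the 5 markers, -5.12 for resident macrophage genes, -2.82 for stellate cell genes and -0.59 for hepatocyte genes. With diclofenac the order differed, at -1.51 for the markers and -2.57 for hepatocyte genes. Hepatocyte genes also had the lower median with ranitidine (-1.87 against -1.34), naproxen (-1.42 against -0.78), ketoconazole (-1.25 against -1.08) and isoniazid (-0.66 against 0.01). In the other high concentrations the markers had the lower median. The part of these other cell types in the levels of the markers was not tested.

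Cd68 encodes an endolysosomal protein, and the endolysosome list stood apart from the macrophage lists. Of its 154 pairs at high concentrations 35 were lower (22.7%, near the 25.5% of all genes) and 60 higher (39.0%, beside 25.4%). The protease gene Ctsl, at 6440 to 7570 CPM in vehicle, rose in 10 high concentrations and fell in 1, and Ctsb rose in 5 and fell in 7. In the treatments in which Cd68 rose, 7 of the 11 list genes were higher with acetaminophen (38.8% of all tested genes higher), 8 each with ranitidine (32.3%), ketoconazole (25%) and isoniazid (17.4%), and 4 each with WY14643 (26%), valproic acid (33.5%) and diclofenac (36%), where for the last 2 the share was near that of all genes. Where Cd68 was not called, 5 were higher with indomethacin (27.1%), 3 each with caffeine (34.6%) and naproxen (27.6%), 2 each with simvastatin (11.4%) and sulfasalazine (21.3%) and 1 each with chloramphenicol (16.1%) and doxorubicin (9.07%). The part of endolysosomal RNA of hepatocytes in the level of Cd68 was not tested.

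**Figure D4:**
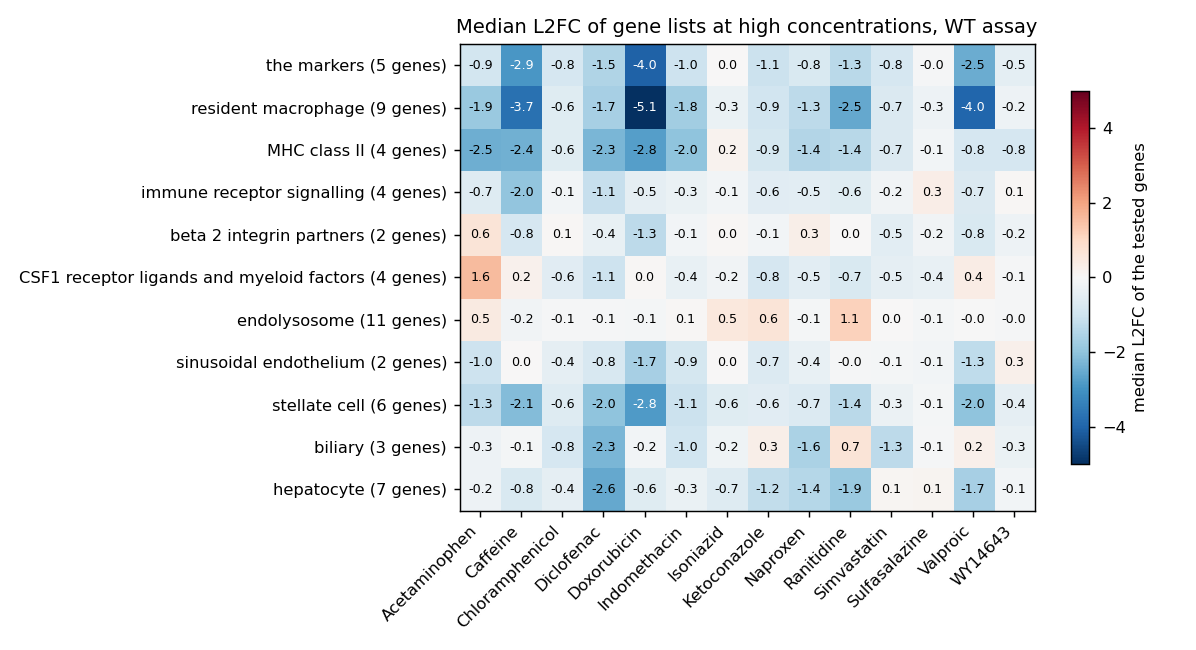
Median L2FC against vehicle of the tested genes of each list (rows, number of genes in parentheses) at the 14 high concentrations (columns), WT assay; blue is lower and red is higher. In the doxorubicin column the markers are at -4.05, resident macrophage genes at -5.12 and hepatocyte genes at -0.59, and the endolysosome row runs from -0.20 with caffeine to 1.14 with ranitidine.

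Over the 60 means per group and batch (log2(CPM + 1), centred within batch), the 4 markers that fell varied together. Pearson's r between pairs of Cd74, Lyz2, Csf1r and Tyrobp was 0.64 to 0.88, and between Cd68 and each of them -0.22 to -0.12. These are descriptions over means that share treatments, libraries and depth, and the 4 markers were grouped by their calls in these same treatments. Of all other tested genes, the 5 most alike to the summed CPM of the 10 markers were RT1-Db1 (r = 0.955), C1qc (0.890), the protease gene Ctss (0.884), RT1-Da (0.864) and Clec4f, a lectin gene used as a Kupffer cell marker (0.836), each over 60 means. Clec4f fell in 10 high concentrations, and Ctss was at 13.2 to 41.0 CPM and fell in 11. These 5 genes stand in the macrophage, MHC class II or endolysosome lists. Cd74 made up 66.3% and 65.7% of the sum in vehicle of the 2 batches, so that the ranking weighs Cd74 most.

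At low concentrations 0 of 70 pairs were called lower and 2 higher (edgeR), beside 4.5% lower and 4.9% higher for all tested genes, and 13 had an unadjusted p under 0.05. Both calls were Cd68. With naproxen at 80 µM its L2FC was 0.91 (SE 0.21, adjusted p = 0.00078, edgeR), and with ketoconazole at 0.6 µM it was 0.81 (SE 0.22, adjusted p = 0.026, edgeR). The naproxen call was lost in batch 1 alone (0.86) and without the wells numbered 1 in every group (0.55), and the ketoconazole call in batch 1 alone (0.40), in batch 2 against vehicle of the same plate (0.95), without the batch term (0.78) and without the wells of any 1 number (0.64 to 1.01). For doxorubicin at 0.08 µM the L2FC was -0.73 for Lyz2 (SE 0.23, adjusted p = 0.10, edgeR), -0.64 for Csf1r and -0.61 for Tyrobp, which did not pass the test. In batch 2 the values of Lyz2 and Csf1r were -1.24 and -1.19, and in batch 1 they were -0.26 and 0.00.

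Of the 5 tested markers, 1 differed between culture medium alone and vehicle. Cd68 was higher in medium (L2FC 0.58, SE 0.20, adjusted p = 0.037, edgeR), beside 7.51% of all tested genes. Its media wells were at 6.10, 6.74 and 6.999 CPM in batch 1, all just above the 3 vehicle wells, and at 7.78 to 17.0 CPM in batch 2, where they overlapped those of vehicle. The call was lost in batch 1 alone (0.35), with library size alone as scaling (0.50), without the count filter (0.57), without the batch term (0.59) and without the wells numbered 2 (0.48) or 3 (0.55). In the ST assay, with the same probe, the L2FC of 0.40 did not pass the test (adjusted p = 0.27, edgeR).

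The effect of a treatment differed between the rats in 4 of 140 pairs of a tested marker and a treatment, beside 2.44% of all pairs tested, so that the share of the markers was close to that of all genes and is no result about them. With caffeine at 10000 µM the L2FC of Csf1r was -1.14 in batch 1 and -3.72 in batch 2, a difference of -2.58 (SE 0.59, adjusted p = 0.0012, edgeR). With valproic acid it was -2.42 and -4.82, a difference of -2.39 (SE 0.71, adjusted p = 0.018, edgeR). With naproxen at 2000 µM it was 0.27 and -1.34, so the directions differed (adjusted p = 0.024, edgeR). Cd74 with ranitidine was at -0.36 and -1.55, a difference of -1.19 (SE 0.40, adjusted p = 0.032, edgeR). In these 4 pairs the L2FC was lower in batch 2. In the ST assay the differences with caffeine (-3.04) and ranitidine (-1.17) passed the test, and those of Csf1r with valproic acid (-0.54, SE 0.59) and naproxen (-0.84, SE 0.43) did not. Without the wells numbered 1 in every group 2 pairs were called and without those numbered 2 there were 0, with 4 without those numbered 3.

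The ST assay measured the same lysates in separate libraries, a technical check and not a biological one. It tested 5 of the 10 markers, Cd68, Cd74, Csf1r, Tyrobp and Fcer1g. Of 70 pairs at high concentrations 36 were lower and 5 higher, beside 29.7% and 27.9% of the 1760 genes tested. At low concentrations there were 0 calls (edgeR), with 7 pairs at an unadjusted p under 0.05, beside 5.57% lower and 6.33% higher of all genes. For the 4 markers tested in both assays, 41 of 112 pairs were called in the WT assay and 33 in the ST assay, and all 33 were among the 41 with the same direction. Of the 8 called in the WT assay alone, Csf1r with diclofenac had the opposite sign in the ST assay, 0.12 (SE 0.24) against -0.67, with the same probe, and the other 7 kept their sign. Cd68 with acetaminophen had an L2FC of 1.89 (SE 0.26) in the ST assay, and Csf1r with doxorubicin -3.50 (SE 0.37). Neither low-concentration call of Cd68 passed the test there, at 0.60 with naproxen and 0.54 with ketoconazole.

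Fcer1g, below the filter in the WT assay, could be tested in the ST assay. In vehicle it was at 32.0, 37.1 and 33.7 CPM in batch 1 and at 23.4 to 39.5 CPM in batch 2. With doxorubicin it was at 8.31, 2.59 and 0.967 CPM in batch 1 and at 2.65, 0.714 and 1.64 CPM in batch 2, without overlap (L2FC -3.79, SE 0.34, adjusted p = 9.7e-20, edgeR). Valproic acid (-3.23, SE 0.29), caffeine (-2.66, SE 0.30) and acetaminophen (-1.70, SE 0.26) followed among its 8 lower calls, and none was higher. The calls with diclofenac (-0.84, SE 0.24) and ranitidine (-0.51, SE 0.23) were smaller. With ranitidine the L2FC was 0.20 in batch 1 and -1.06 in batch 2. The assays used a different probe for Fcer1g and for C1qa and the same probe for the other 8. The mean vehicle level of Fcer1g in batch 1 was 48.9-fold higher in the ST assay than in the WT assay, whereas for Cd68, Cd74, Tyrobp and Csf1r the ratio was 2.92, 3.15, 3.57 and 4.70. For Lyz2, with the same probe, it was 0.846. In batch 2 the ratio was 30 for Fcer1g, 2.31 for Cd68, 3.03 for Cd74, 2.9 for Tyrobp, 2.7 for Csf1r and 0.59 for Lyz2. CPM of the assays are shares of different gene sets and their levels are not comparable one to one.

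**Figure D5:**
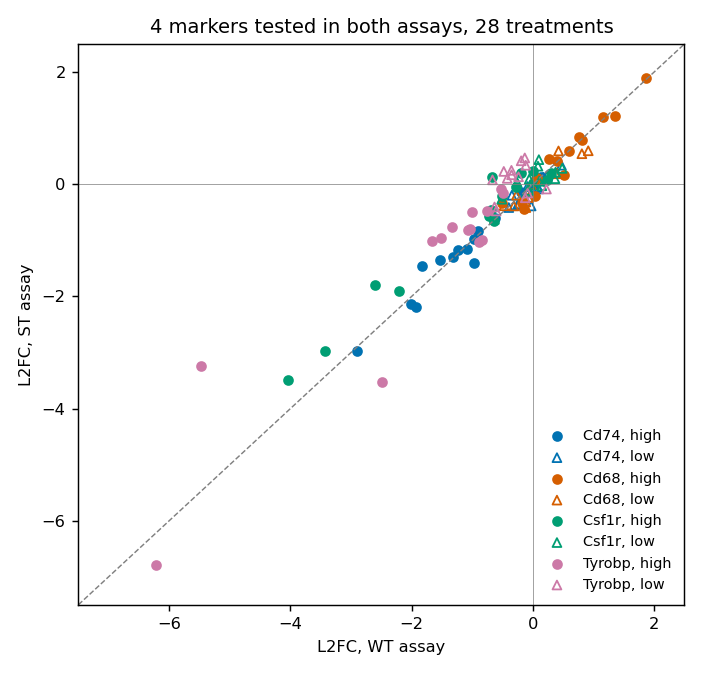
L2FC in the ST assay (vertical axis) against L2FC in the WT assay (horizontal axis) for Cd74, Cd68, Csf1r and Tyrobp in 28 treatments; filled circles are high and open triangles low concentrations, and the dashed line marks equal values. The 33 pairs called in both assays share their direction, and for Tyrobp the doxorubicin and caffeine points rest on 0 to 2 reads per batch in the WT assay. In the ST assay the doxorubicin point of Tyrobp rests on 0 reads in both batches, and that of caffeine on 1 read in batch 2.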

How the data were processed

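TempO-Seq reads of 186 wells per assay (372 libraries) were aligned by the authors to rn6 with STAR 2.5.3a, allowing 2 mismatches, and counted per probe in Tempo-SeqR 1.0. The deposited tables hold raw counts per probe and well. Wells were grouped by their labels. Here, probes of a symbol were added, CPM was computed over all probes, and genes averaging 10 counts or more per well were fitted in R 4.3.3 with edgeR 4.0.16 (quasi-likelihood, TMM, batch as a term, all wells in 1 fit, Benjamini-Hochberg over all genes, threshold 0.05). A model with a mean per group and batch gave batch differences. Pairing of treatment and vehicle was by batch, since each batch is 1 rat. p-values measure spread between wells. DESeq2 1.42.0, other scalings, filters and well subsets were alternatives. L2FC is treatment minus vehicle. The fit was tested on simulated data. Named are, per tested marker, the treatment with the most extreme called L2FC of 1 sign in both batches, up to 2 genes per list by vehicle CPM and the 5 genes most alike to the summed CPM. Further treatments and list genes were chosen after their values were seen. The members and lists were chosen with earlier results of these data known. Low counts limit 5 markers, at 3 reads per group as floor and 95% intervals. Intervals of ratios are exact binomial.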

Additional observations from a re-analysis of the deposited data

Results flagged for a closer look

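Among 40 sets of 6 control wells of batch 2, by marker, assay and control, 6 held a well far from the other 5, where chance gives about 1 in 20. In the WT assay these were Cd74 at 59.1 CPM in 1 media well, with the others up to 43.5, Lyz2 at 6.6 CPM in 1 vehicle well, with the others up to 5.10, and Ptprc at 1.31 CPM in 1 media well, with the others up to 0.587. In the ST assay Fcer1g stood low at 18 CPM in 1 media well, with the others from 26.9, and Ptprc at 0.622 CPM and C1qa at 0.642 CPM were each above 0 in 1 media well of 6. Each of these last 2 values is 1 read against 0 in the other 5 wells, so that the rule had to pick it, and the rate of 1 in 20 does not hold for such counts. For Ptprc in the WT assay the well held 3 reads and the others 2 to 4, so its CPM follows from the depth of that well.

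The L2FC of Csf1r was lower in batch 2 than in batch 1 by an interaction of -2.58 with caffeine at 10000 µM, -2.39 with valproic acid at 10000 µM and -1.61 with naproxen at 2000 µM, and that of Cd74 by -1.19 with ranitidine at 4000 µM (edgeR test of the difference). In the ST assay the same difference was -3.04 for Csf1r with caffeine and -1.17 for Cd74 with ranitidine, which passed the test, and -0.54 for Csf1r with valproic acid and -0.84 with naproxen, which did not (adjusted p = 0.62 and 0.27, edgeR). These 4 of 140 pairs lie near the share that all genes give.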

How the results depend on the processing

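No called L2FC of a marker changed its sign under any alternative. Of 55 calls, 55 held under DESeq2 and under RLE size factors, 53 under library size alone and 52 without a filter on low counts. Under library size alone the median of all genes lay over 0.1 from 0 in 10 of 28 treatments, farthest with acetaminophen at 10000 µM (-0.43). At high concentrations the 52 calls (45 lower, 7 higher) became 34 (29 lower) with no replicate block, that is without the pairing by rat, where 20 of the 55 calls were lost. They became 31 (26 lower) in batch 1 alone and 33 (3 higher) with an absolute L2FC of at least 1. Lower calls were 68 without the filter, when more genes were tested. Higher calls were 4 in batch 2 alone and also against vehicle wells of the same plate only. At low concentrations the 2 calls (0 lower) became 5 (3 lower) under library size alone, 5 (3 lower) in batch 2 alone, 6 (1 lower, 5 higher) in fits of 1 treatment and vehicle, 1 higher in batch 1 alone and with no replicate block, 2 lower and 1 higher against vehicle of the same plate, and 0 with an absolute L2FC of at least 1. The media call became 0 under library size alone, without the filter and with no replicate block. Leaving out the wells of each number in turn gave 43 to 49 calls at high concentrations (38 to 42 lower, 5 to 7 higher), 1 to 2 at low ones, 0 to 1 in medium and 0 to 4 differences between rats. The cause of these changes was not tested.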
